A study of Mus musculus and Rattus norvegicus with 53 samples.

Results

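The matricellular and provisional matrix genes described here were Tnc, Postn, Sparc, Thbs1, Thbs2, Spp1, Fn1, Ctgf, Cyr61 and Tgfbi, which are 10 of the 24016 genes listed in the mouse count files. They were chosen by name, as the rows carrying these symbols, and all 10 passed the filter on low counts in both mouse experiments. Schwann cells (SCs) were sorted by FACS from mice in which a Cre recombinase active in the neural crest lineage switches on a tdTomato reporter at the Rosa26 locus. The sciatic nerve was cut through on one side, and RNA of tdTomato+ SCs was read from full-length cDNA made by Smart-seq2. SCs of the uncut contralateral nerve (iSCs) were compared with SCs of the distal stump (dSCs) and of the bridge, the new tissue that joins the stumps (bSCs). All mice carried the tdTomato reporter, were male or female and were 6 to 8 weeks old, and the controls were nerves of operated mice. The first experiment held 4 pools of each region at day 6, each pool made from the nerves of 3 mice. The second held libraries of single nerves, namely 5 of iSCs, 18 of dSCs (3 each from day 1 and from days 2, 4, 6, 8 and 10) and 12 of bSCs (3 each from days 4, 6, 8 and 10).

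Matricellular proteins are secreted into the matrix without forming its main scaffold, and they modulate how cells adhere, migrate and respond to growth factors. A provisional matrix, of which fibronectin is a main part, is laid down at wounds and later replaced. After a nerve is cut, SCs lose their myelin programme in the distal stump, and those entering the bridge travel through newly formed matrix as cords that guide regrowing axons.

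The libraries held between 9240883 and 22617054 counts on genes. Sox10, a transcription factor that defines SCs, was detected in every group, with pooled levels of 219.9 to 422 CPM in iSCs, 69.1 to 182 CPM in dSCs and 63.0 to 219 CPM in bSCs. CPM are counts scaled to a common library size, with TMM factors. S100b, a calcium-binding SC marker, was low in pooled bSCs, at 2.70 to 56.6 CPM against 159 to 230.2 CPM in iSCs. In single-nerve iSCs, the reference of the day comparisons below, Sox10 was at 21.1 to 107 CPM. In these libraries 11 SC markers summed to 7028 to 33231 CPM, against 27850 to 69992 CPM in pooled iSCs. There 8 endothelial markers summed to 1765 to 4699 CPM, against 160 to 746 CPM in pooled iSCs. The summed level of 14 macrophage markers was 241 to 6445 CPM in pooled iSCs, 11243 to 18483 CPM in pooled dSCs and 2759.6 to 8731 CPM in pooled bSCs, and none of the 14 was at 0 in any of these groups. In the single nerves it was 294 to 1415 CPM in iSCs and reached 12299 to 14625 CPM in dSCs at day 4. Macrophages are known to express Spp1, Fn1, Thbs1 and Tgfbi. The part of these markers in the results below was not tested. Bulk libraries cannot tell fewer cells of a type from less RNA per cell. Several single-nerve libraries stood apart. The dSC and bSC libraries of replicate 1 at day 4 differed by a chi-square per degree of freedom of 3.96, against at least 47.9 for any other pair. A score was taken as the mean log2 CPM of 314 genes higher minus that of 426 genes lower in pooled bSCs than in dSCs, without the 10 genes. It was 3.21 to 5.20 in 10 bSC libraries and 1.18 to 2.45 in 15 dSC libraries. It went against the label of 5 others, at 1.96 and 1.197 in the bSC libraries of day 4 replicate 1 and day 8 replicate 2 and at 3.87, 4.41 and 3.68 in the dSC libraries of day 10 replicate 0, day 2 replicate 0 and day 1 replicate 1. In iSC replicates 0, 1, 3, 4 and 5 the score was 3.60, 3.25, 1.65, 1.70 and 2.01. A high score was thus not confined to bSCs, and at days 1 and 2 no bridge was present. The TMM factors of iSC replicates 0 and 1 and of dSC day 2 replicate 0 were 0.619, 0.604 and 0.496, below those of all other single-nerve libraries. In the same order they held 10572, 10042 and 10306 detected genes, and dSC day 1 replicate 1 held 11138. All other single-nerve libraries held more. The paper states that 4 single intact nerves remained after its filtering, whereas all 5 iSC libraries were used here. Counts with and without the libraries that stood apart are given below.

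The upstream sequences of the 4 genes with higher levels in pooled bSCs than in pooled dSCs are shown first, as the genes that passed as higher in the bridge. They are the 250 bases before a transcription start in the RefSeq promoter table (GRCm38.p6), placed by exact match in NCBIM37, the Ensembl name of mm9. The table held windows for 7 of the 10 genes, and not for Thbs1, Fn1 or Ctgf. Capitals mark the TATA box TATAAA, the TEAD motif CATTCC and the SMAD motif CAGACA, or the reverse complement of any of them. Of the pairs of windows that the table holds for Tnc and Postn, the one nearer to the GENCODE vM1 model of the gene is shown. The window of Tnc was chr4:63707971-63708220 and that of Thbs2 chr17:14831270-14831519, both on the minus strand. The Tnc window lies upstream of the GENCODE model, which ends at 63681760. The window of Postn was chr3:54164779-54165028 on the plus strand, and that of Cyr61 chr3:145312950-145313199 on the minus strand.
Tnc: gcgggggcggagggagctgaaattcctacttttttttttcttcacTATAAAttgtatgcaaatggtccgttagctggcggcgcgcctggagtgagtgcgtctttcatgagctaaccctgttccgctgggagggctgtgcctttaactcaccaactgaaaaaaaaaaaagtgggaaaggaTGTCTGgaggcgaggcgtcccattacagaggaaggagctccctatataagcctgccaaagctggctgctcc
Postn: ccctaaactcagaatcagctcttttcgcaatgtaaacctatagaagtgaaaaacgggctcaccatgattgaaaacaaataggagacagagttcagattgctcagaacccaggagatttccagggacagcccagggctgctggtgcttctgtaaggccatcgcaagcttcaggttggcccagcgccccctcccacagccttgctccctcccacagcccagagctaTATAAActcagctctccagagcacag
Thbs2: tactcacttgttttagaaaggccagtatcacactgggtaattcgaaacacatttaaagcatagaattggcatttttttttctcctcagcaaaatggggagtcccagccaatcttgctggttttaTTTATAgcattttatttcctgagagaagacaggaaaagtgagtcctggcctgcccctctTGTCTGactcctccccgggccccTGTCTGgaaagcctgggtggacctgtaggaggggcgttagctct
Cyr61: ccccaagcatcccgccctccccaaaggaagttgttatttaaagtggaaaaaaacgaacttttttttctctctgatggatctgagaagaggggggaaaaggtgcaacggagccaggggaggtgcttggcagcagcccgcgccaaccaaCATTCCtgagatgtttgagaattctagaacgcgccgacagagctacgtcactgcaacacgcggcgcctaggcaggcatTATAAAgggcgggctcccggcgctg

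TATAAA began 26 bases before the start in Postn and 25 bases before it in Cyr61, but 205 bases before it in Tnc. Only these exact letters were searched. The Tnc window also holds tatataag close to its end, a like stretch that the search did not mark. In Thbs2 its reverse complement lay at 126 bases. The reverse complement of the SMAD motif, TGTCTG, was found at 71 bases in Tnc and at 67 and 44 bases in Thbs2. The TEAD motif lay at 103 bases in Cyr61. In the windows not shown, that of Tnc held TATAAA at 126 bases and no SMAD motif, and that of Postn held no match. TGTCTG was also found at 36 bases in Sparc, and at 34 bases in a window of Spp1 that held TATAAA at 211 bases. Neither Sparc nor Spp1 passed a pooled test. The other window of Spp1 and that of Tgfbi held no match. Searched on both strands of 32851 windows of the same length, TATAAA was present in 12.4%, the SMAD motif in 17.1% and the TEAD motif in 12.6%. TGANTCA, the AP-1 motif, was present in 6.75% of all windows and in none of those of the 7 genes. No match of one motif overlapped a match of another in these windows. The letters are a description of the windows and not of binding.

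In the pooled nerves, Tnc, Postn and Thbs2 rose from iSCs to dSCs and were higher again in bSCs. Fn1, Tgfbi and Thbs1 rose in dSCs, while their levels in bSCs did not pass the test against iSCs. Cyr61 fell in dSCs and was higher in bSCs than in dSCs. Sparc, Spp1 and Ctgf passed no test. Between dSCs and iSCs 7 of the 10 genes passed an adjusted p of 0.05 in edgeR's quasi-likelihood test with Benjamini-Hochberg adjustment, where 5.32% of all 13751 genes tested passed it. Of the 7, 6 were higher and 1 lower in dSCs, where 2.63% and 2.69% of all genes were. The median log2 fold change of all 10 was 2.03, beside -0.02 over all genes. Between bSCs and iSCs 3 of the 10 passed, against 14.7% of all genes (7.24% higher and 7.46% lower). All 3 were higher, and the median of all 10 was 0.64 beside -0.16. Between bSCs and dSCs 5 of the 10 passed, against 5.43% of all genes. Of the 5, 4 were higher and 1 lower in bSCs, where 2.31% and 3.11% of all genes were, and the median of all 10 was 0.16 beside -0.07. The 3 comparisons share libraries, so they are not independent of each other. All adjusted p below are from this edgeR fit unless another is named.

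**Figure D1:**
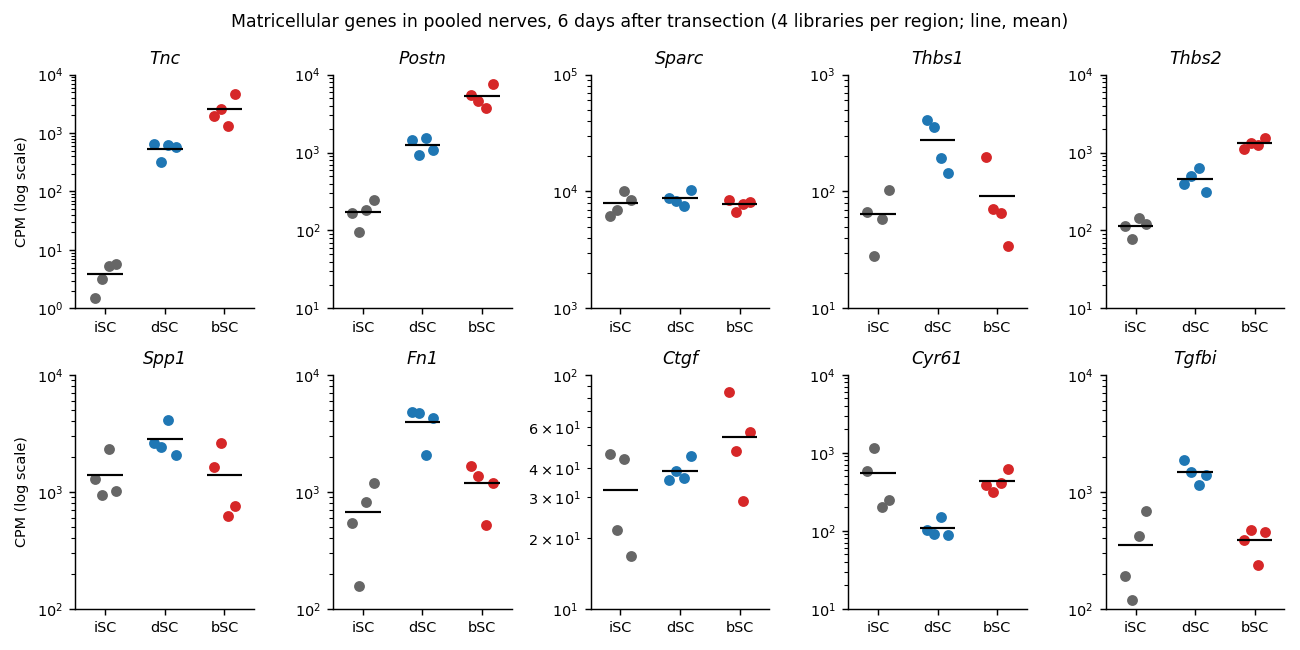
Level of each gene in the 12 pooled libraries, in CPM on a log axis, by region, with a point per library and a line at the mean of 4. The Tnc points rise from under 6 CPM in iSCs to over 300 CPM in dSCs and over 1300 CPM in bSCs, while the Sparc points of the 3 regions overlap.

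Tenascin-C, encoded by Tnc (chromosome 4, 63620819 to 63681760, minus strand), is a large glycoprotein that changes how cells attach to fibronectin. Its level was 1.48, 3.15, 5.30 and 5.81 CPM in iSC pools 1, 2, 4 and 5, from 19, 62, 70 and 72 counts. In dSC pools 1, 2, 3 and 5 it was 642, 316, 619.7 and 582 CPM, and in bSC pools 1, 2, 3 and 5 it was 1963, 2543, 1343 and 4575 CPM. No library of one region overlapped with those of another. The log2 fold change was 7.10 (SE 0.57, adjusted p = 0.000118) in dSCs over iSCs, 9.37 (SE 0.62, adjusted p = 1.16e-05) in bSCs over iSCs and 2.27 (SE 0.45, adjusted p = 0.0138) in bSCs over dSCs. These are folds of 137, 662 and 4.83. Exons of 8030451A03Rik, a lincRNA gene, overlap those of Tnc on the opposite strand, and Smart-seq2 reads carry no strand, so reads of the pair cannot be told apart.

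Periostin (Postn, chromosome 3, 54165031 to 54194961, plus strand) binds integrins and cross-links collagen in healing tissue. It was present at 167, 95.2, 185 and 248 CPM in iSC pools and at 1432, 918, 1524 and 1088 CPM in dSC pools. The bSC pools held 5464, 4510.5, 3729 and 7602 CPM, above every dSC pool. Postn changed on the log2 scale by 2.83 (SE 0.34, adjusted p = 0.000666) in dSCs over iSCs, 4.94 (SE 0.38, adjusted p = 3.79e-05) in bSCs over iSCs and 2.10 (SE 0.33, adjusted p = 0.00524) in bSCs over dSCs. Fibroblasts also make Postn. The summed level of 12 fibroblast markers was 11098 to 57875 CPM in iSC pools, 34928 to 50878 CPM in dSC pools and 19726 to 35645 CPM in bSC pools. None of the 12 was at 0 in any of these groups, and Pdgfra, a defining receptor of fibroblasts, was at 79.8 to 214 CPM in dSCs and 0.172 to 62.8 CPM in bSCs. None of the 12 was higher in bSCs than in dSCs and 3 were lower, where 2.31% and 3.11% of all genes were. The part of these 12 in the Postn result was not tested.

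Thrombospondins are trimeric or pentameric glycoproteins that bind CD36, CD47 and matrix proteases. Thbs2 (chromosome 17, 14802507 to 14831269, minus strand) was at 114, 78.8, 143 and 122 CPM in iSC pools and at 389, 503, 639.8 and 310.2 CPM in dSC pools. In bSC pools it was at 1099.8, 1319, 1261 and 1552 CPM, and the 3 regions did not overlap. Log2 fold changes were 2.01 (SE 0.27, adjusted p = 0.00131) in dSCs over iSCs, 3.51 (SE 0.29, adjusted p = 3.79e-05) in bSCs over iSCs and 1.51 (SE 0.27, adjusted p = 0.00936) in bSCs over dSCs. The calls of Tnc, Postn and Thbs2 held without any 1 library, with the pool number as a block and in DESeq2.

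Thbs1, which encodes an activator of latent TGFβ, had another order. Its level was 67.0, 27.9, 58.2 and 103 CPM in iSC pools and 406, 359, 194 and 144 CPM in dSC pools, which did not overlap. In bSC pools it was 198, 70.4, 64.9 and 34.4 CPM, a range that overlapped with both other regions. In dSCs over iSCs it changed by 2.11 on the log2 scale (SE 0.55, adjusted p = 0.0411). This call was lost without any library other than iSC pool 5, with an adjusted p of up to 0.119, in the fit with the pool as a block, at 2.07 (adjusted p = 0.177), and with a covariate for libraries given as 1 file or as a pair of lanes, at 2.08 (adjusted p = 0.0735). In bSCs over dSCs the log2 fold change was -1.58 (adjusted p = 0.0997), and it passed in DESeq2, where 8.5% of all genes were lower, and when bSC pool 1 was left out, at -2.30 (adjusted p = 0.0221).

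Fn1 (chromosome 1, 71632094 to 71699774, minus strand) encodes fibronectin, which cells bind through integrins. It was at 542, 157, 816 and 1183 CPM in iSC pools, at 4780.3, 4678, 2058 and 4300.0 CPM in dSC pools and at 1670.0, 1356, 516 and 1178 CPM in bSC pools. All dSC pools lay above all iSC and all bSC pools, and iSC and bSC pools overlapped. Its log2 fold change was 2.55 (SE 0.54, adjusted p = 0.0172) in dSCs over iSCs, with an adjusted p of 0.0621 without iSC pool 1. It was 0.81 (SE 0.52, adjusted p = 0.347) in bSCs over iSCs. In bSCs over dSCs it was -1.74 (SE 0.53, adjusted p = 0.0708), and this passed in DESeq2 and when only those 8 libraries were fitted. Exons of Apol7d overlap those of Fn1 on the opposite strand.

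Tgfbi, a TGFβ-induced protein that links collagen to integrins, had a like order. The iSC pools held 191, 119, 415 and 687 CPM, the dSC pools 1876, 1480.4, 1142 and 1387 CPM, and the bSC pools 386, 469, 235 and 454 CPM. The dSC pools stood above those of both other regions. For Tgfbi the log2 fold change was 2.06 (SE 0.46, adjusted p = 0.0218) in dSCs over iSCs and -1.93 (SE 0.46, adjusted p = 0.0293) in bSCs over dSCs. Both calls depended on single libraries. The first was lost without iSC pool 1 or 4 or dSC pool 1, 2 or 5, with an adjusted p of up to 0.0683. The second was lost without any of the 8 libraries other than dSC pool 3, with an adjusted p of up to 0.0749, and with the pool as a block, at -1.98 (adjusted p = 0.0632). Of the 14 macrophage markers 3 were higher in dSCs than in iSCs, where 2.63% of all genes were. In bSCs over dSCs none of the markers passed, where 5.43% of all genes did. The part of these markers in the Tgfbi result was not tested.

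Osteopontin (Spp1), a secreted integrin and CD44 ligand, was high everywhere. It was at 1293, 947, 2309.6 and 1016 CPM in iSC pools, at 2592, 2417, 4136 and 2074 CPM in dSC pools and at 1631, 2606, 625 and 759 CPM in bSC pools. The regions overlapped. Spp1 changed on the log2 scale by 1.01 (95% interval 0.04 to 1.98, adjusted p = 0.273) in dSCs over iSCs, 0.01 (-0.94 to 0.97) in bSCs over iSCs and -0.997 (-1.97 to -0.03, adjusted p = 0.217) in bSCs over dSCs. Sparc, which encodes a collagen-binding matricellular protein, ranged from 6224 to 10183 CPM over all 12 pools. Its log2 fold changes were 0.14 (95% interval -0.40 to 0.67), -0.03 (-0.57 to 0.50) and -0.17 (-0.71 to 0.37) in the same order. In each pooled comparison Sparc had the narrowest interval of the 10 genes.

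Cyr61 and Ctgf encode CCN1 and CCN2, small modular proteins whose genes respond to serum and to YAP. Cyr61 was at 591, 1148, 203 and 248 CPM in iSC pools, at 103, 89.8, 149 and 89.0 CPM in dSC pools and at 382, 313, 407 and 613 CPM in bSC pools. Every dSC pool was below every other pool. On the log2 scale Cyr61 changed by -2.35 (SE 0.48, adjusted p = 0.0142) in dSCs over iSCs, lost without dSC pool 2 or 5 (adjusted p of up to 0.0549). It was 1.99 (SE 0.48, adjusted p = 0.0303) in bSCs over dSCs, lost without bSC pool 3 or 5 or dSC pool 1, 2 or 5 (adjusted p of up to 0.0855) and with the pool as a block, at 2.05 (adjusted p = 0.0632). In bSCs over iSCs it was -0.35 (95% interval -1.34 to 0.64).

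The iSC pools with the most Cyr61, pools 1 and 2, also had the highest sums of 18 immediate early genes, which tissue dissociation can induce. Those sums were 11318 and 17567 CPM, against 2685 and 6047 CPM in pools 4 and 5, 2825 to 3785 CPM in dSC pools and 2089 to 4349 CPM in bSC pools. Of the 18 genes, 4 were lower in dSCs and 7 lower in bSCs than in iSCs, where 2.69% and 7.46% of all genes were. None of the 18 was higher, and their part in the Cyr61 result was not tested. Ctgf was at 45.9, 21.8, 43.7 and 16.8 CPM in iSC pools, at 35.4, 38.7, 36.1 and 45.1 CPM in dSC pools and at 84.1, 47.3, 28.9 and 57.1 CPM in bSC pools, and the regions overlapped. Its log2 fold changes were 0.28 (95% interval -0.61 to 1.17), 0.76 (-0.13 to 1.66) and 0.49 (-0.40 to 1.38).

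**Figure D2:**
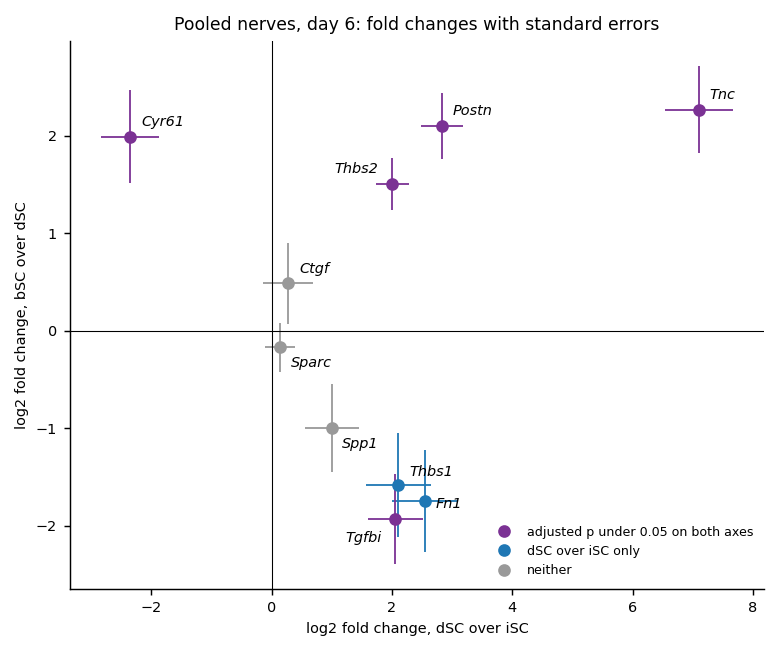
Log2 fold change of each of the 10 genes in dSCs over iSCs (horizontal axis) and in bSCs over dSCs (vertical axis) in the pooled nerves, with bars of 1 SE and colours for the comparisons that passed an adjusted p of 0.05. Tnc lies at 7.10 and 2.27, Cyr61 at -2.35 and 1.99 and Tgfbi at 2.06 and -1.93, and both axes use the same dSC libraries.

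Levels were compared between the genes per kilobase of exon (GENCODE vM1). Sparc had the highest mean in every region, at 2364, 2599 and 2308 CPM per kb in iSCs, dSCs and bSCs, and Spp1 was second, at 844, 1702 and 853 CPM per kb. Tnc was number 10 in iSCs at 0.524 CPM per kb, number 7 in dSCs at 71.9 and number 4 in bSCs at 347. Postn was number 6 in iSCs at 22.2 and number 3 in bSCs at 679.6 CPM per kb. In bSCs the order went on with Thbs2 (221), Cyr61 (211), Fn1 (141), Tgfbi (130.1), Ctgf (21.8) and Thbs1 (15.1 CPM per kb). In that order the means of Sparc and Spp1 and those of Tgfbi and Ctgf were further apart than their SDs reach, and the SDs of all other neighbours met.

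Relatives of the 10 genes and the receptors they bind were counted in lists of 41 and 28 genes, of which 34 and 27 were tested in the pooled nerves. In dSCs over iSCs 2 relatives rose and 1 fell, and 3 receptors rose and 1 fell, where 2.63% of all genes rose and 2.69% fell. Cd44, a receptor of hyaluronan and osteopontin, rose by a log2 fold change of 2.03 (adjusted p = 0.00254), Itga5, the α chain of the fibronectin receptor, by 1.94 (adjusted p = 0.00273) and Plaur, the urokinase receptor, by 2.72 (adjusted p = 0.0137). Itga6, a laminin receptor chain, changed by -1.78 (adjusted p = 0.0141). Thbs4 (2.23) and Efemp2 (1.49) were the relatives that rose and Sparcl1 (-1.85) the one that fell.

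In bSCs over iSCs 5 relatives rose and 8 fell, and 5 receptors rose and 4 fell, where 7.24% of all genes rose and 7.46% fell. Itga5 (3.32), Cd44 (3.22), Plaur (3.12), Sdc1 (2.31) and Itgb1 (1.30), the β chain partner of Itga5, were the receptors that rose, with adjusted p from 6.25e-05 to 0.00936. The receptors that fell were Itga8, with 0 counts in all 4 bSC pools, Itga6 (-1.44), Sdc4 (-1.43) and Itgb5 (-1.03). Emilin1 (2.59), Edil3 (2.41), Fbln2 (1.64), Nrep (1.62) and Efemp2 (1.19) were the relatives that rose. Comp and Wisp2 had 0 counts in all 4 bSC pools, against means of 33.6 and 25.8 CPM in iSCs. No fold is given for them, because reads of amplified cDNA are not independent molecules and 0 counts set no firm limit. Spock2 (-5.79), Smoc2 (-3.82) and Vtn (-3.50), which encodes vitronectin, also fell. In bSCs over dSCs 3 relatives rose (Nrep 1.70, Fbln2 1.61 and Edil3 1.60) and 7 fell, where 2.31% and 3.11% of all genes did. Among the 7 were Comp and Wisp2, again with 0 counts in bSCs, Efemp1 (-3.62), Tnxb (-3.59) and Vtn (-3.31). Of the receptors Sdc1 (2.31), Itga5 (1.38) and Cd44 (1.18) rose and Lrp1 (-1.75) and Itgb5 (-1.18) fell. The median log2 fold change of the relatives was -0.65 and of the receptors -0.17 in that comparison, beside -0.07 over all genes.

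In the single nerves, Tnc rose in dSCs from day 2 and in bSCs at every day, and Thbs2 rose at the same days. Fn1 rose in dSCs at day 4 and in bSCs at days 4 and 6, Postn in bSCs at days 6 and 10 and Spp1 in dSCs at day 2. No member fell. Against the 5 iSC libraries, none of the 10 genes passed in dSCs at day 1, where 0.18% of all 15519 genes tested passed as higher. At days 2, 4, 6, 8 and 10 3, 3, 2, 2 and 2 of them were higher, where 0.374%, 1.21%, 0.477%, 0.277% and 0.322% of all genes were. At an unadjusted p under 0.05 the count at day 1 was 3, against 6.75% of all genes. In bSCs 3, 4, 2 and 3 were higher at days 4, 6, 8 and 10, where 1.13%, 0.818%, 0.245% and 0.889% of all genes were. All days share the iSC libraries. Over days this makes 12 calls in dSCs and 12 in bSCs. They were 12 and 11 without the near-identical day 4 libraries, 12 and 12 without the 3 libraries from day 4 on that went against their region label, 14 and 14 without all 5 such libraries, and 7 and 9 without the 3 libraries with low TMM factors. Of single libraries, iSC replicate 1 moved the dSC count most, to 7 without it.

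**Figure D3:**
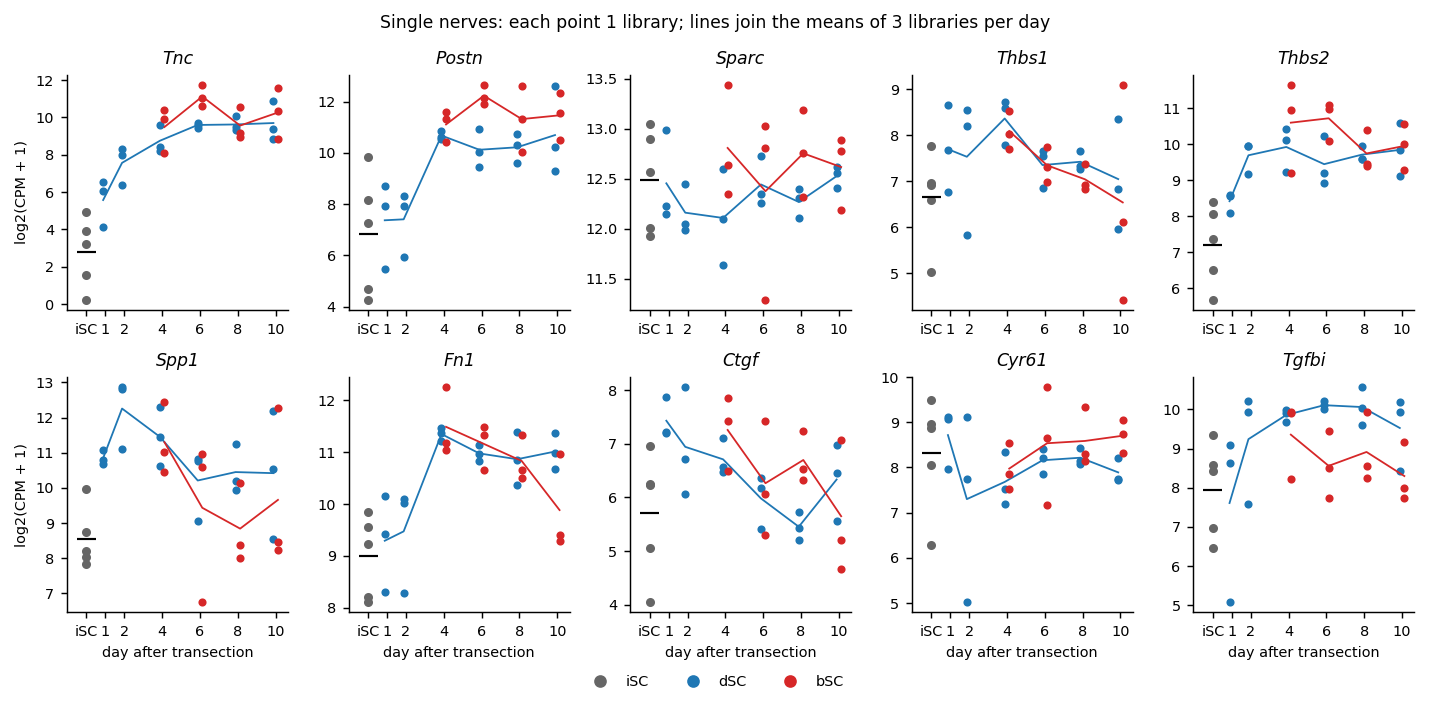
Level of each gene in the 35 single-nerve libraries, as log2(CPM + 1), for iSCs and by day after injury for dSCs and bSCs, with a point per library and lines joining the means of 3 libraries. Tnc and Thbs2 of both injured regions stand above iSCs from day 2 on, while the Sparc points of iSCs, dSCs and bSCs overlap.

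Tnc was at 1.95, 0.179, 8.19, 29.7 and 13.8 CPM in iSC replicates 0, 1, 3, 4 and 5. At day 1 the dSC libraries held 66.2, 16.3 and 91.3 CPM, and at day 2 they held 83.3, 312 and 256 CPM, so that only day 1 overlapped with iSCs. The later dSC libraries lay between 298 and 1862 CPM, the highest being day 10 replicate 0. Over iSCs, dSCs had a log2 fold change of 4.32 (SE 0.81, adjusted p = 0.00761) at day 2, 5.44 at day 4, 6.15 at day 6, 6.21 at day 8 and 6.51 (SE 0.89, adjusted p = 0.000142) at day 10. In bSCs the libraries held 978, 272 and 1369.6 CPM at day 4, 3375, 2103 and 1545 CPM at day 6, 1489, 496 and 579.7 CPM at day 8 and 1319, 464 and 3010.4 CPM at day 10. For bSCs the log2 fold change over iSCs was 6.32 (adjusted p = 0.000105), 7.75 (adjusted p = 1.05e-05), 6.29 (adjusted p = 0.000177) and 7.19 (adjusted p = 4.81e-05) at those days. These calls held without any 1 library.

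Thbs2 was at 50.2, 88.8, 333, 263 and 164 CPM in the 5 iSC libraries. In dSCs it was at 377, 269 and 386 CPM at day 1 and at 576, 985 and 984 CPM at day 2, and between 483 and 1533 CPM later. In bSCs it was at 1973, 587 and 3174 CPM at day 4, at 2171, 1995 and 1094 CPM at day 6, and between 618 and 1509 CPM at days 8 and 10. From day 2 every dSC and bSC library lay above every iSC library. In dSCs the log2 fold change over iSCs was 2.24 (adjusted p = 0.0335), 2.51 (adjusted p = 0.00671), 2.06 (adjusted p = 0.0489), 2.23 (adjusted p = 0.0408) and 2.47 (adjusted p = 0.0222) at days 2, 4, 6, 8 and 10. In bSCs it was 3.41 (adjusted p = 0.000361), 3.29 (adjusted p = 0.00106), 2.32 (adjusted p = 0.0342) and 2.55 (adjusted p = 0.0078) at days 4, 6, 8 and 10. The calls at day 4 and the bSC call at day 6 held without any 1 library. The dSC call at day 2 was lost without iSC replicate 0, 1 or 5 or dSC replicate 3 or 4 (adjusted p of up to 0.139), at day 6 without any library but iSC replicate 3 (up to 0.231), at day 8 without iSC replicate 0, 1 or 5 or any dSC library (up to 0.124) and at day 10 without iSC replicate 0 or 1 or dSC replicate 0 or 1 (up to 0.176). The bSC call was lost at day 8 without iSC replicate 0, 1 or 5 or any bSC library (up to 0.214) and at day 10 without bSC replicate 0 (0.0814).

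Postn was uneven among the iSC libraries, at 24.7, 18.3, 915, 287 and 154 CPM. In dSCs it was at 415, 43.7 and 241 CPM at day 1 and 60.4, 245 and 321 CPM at day 2, within the iSC range. At days 4, 6 and 8 the dSC libraries lay between 689.7 and 1932 CPM, and at day 10 they held 6197, 1184 and 619 CPM. In bSCs it was at 2535, 1368 and 3104 CPM at day 4 and at 4525, 3850.2 and 6382 CPM at day 6. At day 8 the bSC libraries held 6228, 2570.0 and 1040.0 CPM, and at day 10 they held 3016, 1469 and 5113 CPM. All bSC libraries were above all iSC libraries. The log2 fold change over iSCs was 4.14 (SE 0.88, adjusted p = 0.0116) in bSCs at day 6 and 3.51 (SE 0.86, adjusted p = 0.0324) at day 10. The 12 fibroblast markers summed to 25687 to 32838 CPM in iSCs, 45397 to 55779 CPM in bSCs at day 6, when 2 of them were higher and 1 lower, and 17746 to 25749 CPM in bSCs at day 10, when 1 was lower. The part of these markers here was not tested either. The day 10 call was lost without iSC replicate 0, 1, 4 or 5 or bSC replicate 0 or 3 (adjusted p of up to 0.242).

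Fn1 was at 277, 297, 922, 597 and 749.8 CPM in iSCs. In dSCs it was at 2633, 2380 and 2829 CPM at day 4, with a log2 fold change of 2.20 (SE 0.46, adjusted p = 0.00916), and all dSC libraries from day 4 lay above the iSC libraries. In bSCs it was at 2112, 2306 and 4863 CPM at day 4, a log2 fold change of 2.44 (adjusted p = 0.00391), and at 2577, 2859 and 1622 CPM at day 6, a log2 fold change of 2.05 (adjusted p = 0.0187), lost without bSC replicate 0 or 1 of day 6 (adjusted p of up to 0.124). By day 10 the bSC libraries held 622, 677 and 1999 CPM, of which the last was above the iSC range. Of the 14 macrophage markers, 4 were higher in dSCs than in iSCs at day 1 and again at day 2, then 13 at day 4, 8 at day 6, 2 at day 8 and 3 at day 10. In bSCs 10, 6, 3 and 9 were higher at days 4, 6, 8 and 10. The shares of all genes that were higher at these days are given above. The part of the macrophage markers in the Fn1 result was not tested.

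Spp1 was at 1010.0, 258, 294, 425 and 229 CPM in iSCs. It was at 1633, 1771 and 2155 CPM in dSCs at day 1 and at 2187, 7217 and 7429 CPM at day 2. The last 2 of these were the highest levels of this gene. At day 4 the dSC libraries held 1575 to 5032 CPM, above every iSC library, but Spp1 did not pass at that day. The log2 fold change at day 2 was 3.66 (SE 0.85, adjusted p = 0.0399), a call lost without iSC replicate 1, 3, 4 or 5 or dSC replicate 3 or 4 (adjusted p of up to 0.138) and, at 4.55, without the 3 libraries with low TMM factors (adjusted p = 0.0909). The summed macrophage level at day 2 was 4097 to 7021 CPM, and 4 of the 14 markers were higher than in iSCs, where 0.374% of all genes were. In bSCs Spp1 ranged from 107 CPM at day 6 to 5572 CPM at day 4, and at day 10 it was at 353, 300.5 and 4946 CPM.

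Sparc, Thbs1, Ctgf, Cyr61 and Tgfbi passed at no day. Sparc ranged from 2509 to 11073 CPM over the 35 libraries. Thbs1 ranged from 20.4 CPM in bSCs to 543 CPM in bSCs of the same day 10. Ctgf was at 15.6 to 124 CPM in iSCs and 147, 148 and 232 CPM in dSCs at day 1, above the iSC libraries. Cyr61 was at 266, 76.4, 494, 465 and 717 CPM in iSCs and 293, 341 and 231 CPM in dSCs at day 6, the time at which the pooled dSCs were low. Tgfbi was at 86.6, 125, 649.6, 379 and 342 CPM in iSCs and at 1021, 1096 and 1194 CPM in dSCs at day 6. No member passed in the tests for differences among the distal days (0.0644% of all genes passed), among the bridge days (0%) or for a change of the bridge to stump difference with the day (0%). At an unadjusted p under 0.05 the counts were 3, 0 and 0, against 6.86%, 7.84% and 3.14% of all genes. With DESeq2's likelihood ratio test they were 5, 0 and 0, against 3.51%, 0.357% and 0.0391%.

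Between bSCs and dSCs of the single nerves no member passed at any day, where 0%, 0.00644%, 0% and 0.0129% of all genes passed at days 4, 6, 8 and 10. At an unadjusted p under 0.05 the counts were 0, 2, 0 and 0, against 2.45%, 7.25%, 2.72% and 6.59% of all genes, and DESeq2 called 0 members where it called 1.3%, 2.58%, 1.02% and 3.15% of all genes. With so few of all genes called, these tests cannot tell whether the members differ. At day 6, the day of the pools, Tnc was at 1545 to 3375 CPM in bSCs and 702 to 840 CPM in dSCs. Postn was at 3850 to 6382 CPM in bSCs and 690 to 1932 CPM in dSCs. Tgfbi was at 211 to 695 CPM in bSCs and 1021 to 1194 CPM in dSCs. The libraries of the other members overlapped at that day. Over the mean of the 4 days none of the 10 passed in edgeR either, against 0.103% of all genes. At an unadjusted p under 0.05 there were 2, against 9.01%, and DESeq2 called 0, against 3.93%. The mean log2 fold change was 0.81 for Tnc (95% interval -0.08 to 1.71), 1.04 for Postn (0.06 to 2.02, adjusted p = 0.496), 0.58 for Thbs2 (-0.01 to 1.16) and -0.99 for Tgfbi (-1.76 to -0.23, adjusted p = 0.326). Without the 3 libraries from day 4 on that went against their region label, no member passed either. Without all 5 such libraries Tgfbi passed as lower in bSCs, at -1.34 (adjusted p = 0.0213), where 1.65% of all genes were lower. These libraries were picked by a score of the bridge to stump difference itself. Leaving them out can widen that difference, so this fit is no independent test of it.

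The labels give the bSC and dSC libraries of one day the same animal in 10 clear pairs, and in the fit with the animal as a block Postn passed, where 1.37% of all genes did and 0.116% were higher. Its log2 fold change was 1.65 (adjusted p = 0.0137), and it was higher in bSCs in 8 of 10 animals. The fit gives the 4 days equal weight, and day 10 holds 1 of the 10 pairs, whose Postn difference of 3.05 was the largest. The median Postn difference of the 10 pairs was 1.72. An 11th pair, at day 10, has labels that disagree on the animal, and with it included no member passed, against 0.445% of all genes. Tgfbi was lower in bSCs in 9 of 10 animals, at -1.08 (adjusted p = 0.0645), and Tnc was higher in 7 of 10, at 1.19 (adjusted p = 0.0645). Sparc was higher in 9 of 10, at 0.33 (adjusted p = 0.553). In the animal of the near-identical day 4 libraries, Tnc was at 272 CPM in bSCs and 298 CPM in dSCs, and Postn at 1368 and 1499 CPM.

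**Figure D4:**
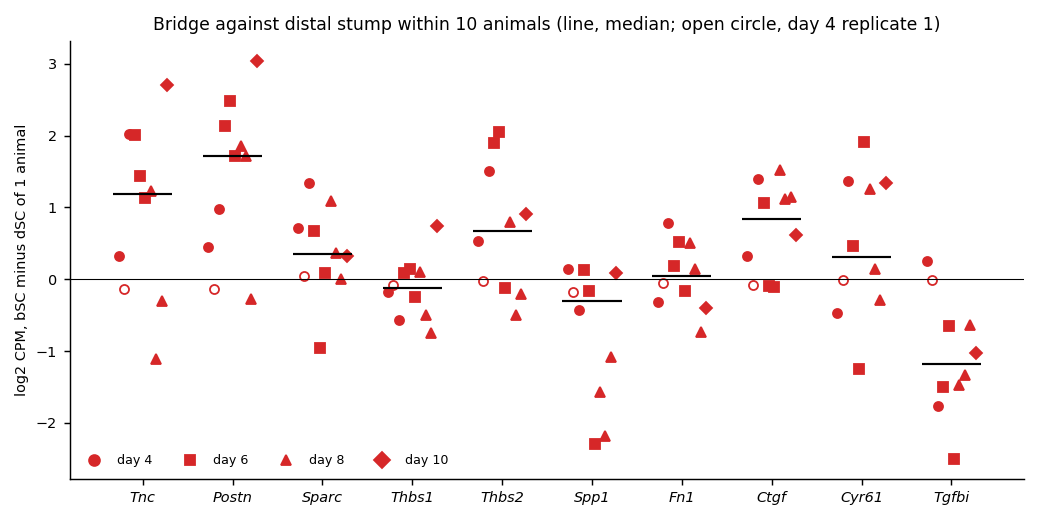
Difference between the bSC and the dSC library of the same animal, as log2 CPM of bSCs minus that of dSCs, for each gene in 10 animals, with a line at the median and an open circle for day 4 replicate 1. The Postn points lie above 0 in 8 animals and the Tgfbi points below 0 in 9.

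Of the related genes, 36 relatives and 27 receptors were tested in the single nerves. Cd44 was higher than in iSCs at all 6 dSC days and all 4 bSC days, with mean levels of 291 to 749 CPM against 88.9 CPM and log2 fold changes of 1.71 to 3.08. At dSC day 1, the day at which none of the 10 genes passed, it had a log2 fold change of 2.25 (adjusted p = 0.00644). Efemp2, a fibulin, rose at day 4 in dSCs (1.71) and bSCs (2.24). Vtn fell in bSCs at day 4 (-2.78), day 6 (-3.64) and day 10 (-5.20). Itgb3, an integrin chain that binds osteopontin and vitronectin, rose in dSCs at day 4 (2.31), Itgav in bSCs at day 6 (1.73) and Fstl1 in bSCs at day 4 (1.81). Stab1 rose in dSCs at day 4 (2.93). Ptprz1 fell at day 4, to 1 count over the dSC libraries and 0 over the bSC libraries. Wisp2 fell in bSCs at day 10 (-10.0), to 4 counts over the libraries. No relative or receptor passed between bSCs and dSCs at any day.

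Among all genes tested, those most like each of the 10 were found by the Pearson correlation of log2 CPM over the 35 single-nerve libraries, which share days and injury. For Tnc they were Dclk1 (r = 0.915), Flnc (0.902) and Thbs2 (0.896). For Postn they were Col5a2 (0.925), Col1a1 (0.920), which is one of the fibroblast markers above, and Mmp14 (0.913). For Thbs2 they were Tnc, Ccnb1 (0.855) and Loxl2 (0.836). For Fn1 they were Fstl1 (0.913), Aebp1 (0.894) and Loxl2 (0.877), and for Tgfbi Lrp4 (0.857), Aebp1 (0.849) and Ankrd11 (0.848). Cyr61 was most like Ptrf (0.812), Rsu1 (0.809) and Egr2 (0.800). Those for Sparc were Gpx7 (0.725), Rps4l (0.658) and Gpx8 (0.646), and those for Thbs1 Mlkl (0.711), Syk (0.707) and Slc26a11 (0.707). Spp1 was most like Apoc2 (0.747), Rgs1 (0.733) and B430306N03Rik (0.718), and Ctgf most like Arg1 (0.722), Ms4a4c (0.721) and Mnda (0.710). The values of these 4 genes were below those of the other 6.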

How the data were processed

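RNA of sorted SCs was sequenced after Smart-seq2, which amplifies cDNA, so reads of a gene are not independent molecules and intervals cover the spread between libraries as deposited. Per the labels, reads were aligned with TopHat2 2.0.11 to mm9 and assigned to genes with HTSeq, and the authors deposited the raw count of each of 24016 genes and 92 ERCC spike-ins. Spike-ins and HTSeq's own categories were left out, and lanes of 1 library were summed. Rat files were not analysed here.

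Each mouse experiment was fitted on its own over all genes with edgeR 4.0.16 in R 4.3.3 (TMM, its filter on low counts with a minimum count of 10, quasi-likelihood test, Benjamini-Hochberg adjustment), with 12 libraries and 13751 genes in the pooled nerves and 35 libraries and 15519 genes in the single nerves. The scripts were tested on simulated counts. Log2 CPM used a prior count of 2. Depth was 11435463 to 22617054 counts in pooled and 9240883 to 22426128 in single-nerve libraries, and 0 pairs of libraries were identical. The unit of replication is a pool of nerves of 3 mice or the nerve of 1 mouse. The genes and lists were chosen with earlier results of these data known. All 10 genes are named in every comparison, and of the relatives and receptors at most the 5 most increased and the 5 most decreased genes past an adjusted p of 0.05. The genes most like each of the 10 are the 3 with the highest Pearson r. Levels per kilobase and positions use GENCODE vM1.

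The labels give libraries of the same pool number, and bSC and dSC libraries of 1 day, a shared animal. Deviations from the group means correlated by -0.01 on average over 10 pooled pairs (-0.13 to 0.08) and by 0.15 over 11 single-nerve pairs (-0.06 to 0.68), and the pairing was taken from the labels. Alternatives tried were no filter, DESeq2 1.42.0, edgeR with DESeq2's size factors, the study's filter (100 counts in 85% of libraries), only the groups compared, a lane covariate, a block of pool or animal, library totals, and leaving out libraries.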

Additional observations from a re-analysis of the deposited data

Results flagged for a closer look

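One level was far from the others of its group. Spp1 in the single intact nerves was at 1010.0 CPM in iSC replicate 0, with the next library at 425 CPM, a gap of 0.749 of the group's range against a critical value of 0.710 for 5 samples. It was the only one found among 40 groups of 4 or 5 libraries, and chance alone flags about 1 group in 20. The TMM factor of that library was 0.619.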

How the results depend on the processing

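Where an alternative changed a result, the cause was not tested. The lowest counts were those of Tnc in iSCs, at 19 to 72 per pooled library and 14, 1, 155, 584 and 271 in the single nerves. Per day only 3 libraries were available, and 2 of the 5 single iSC libraries had low TMM factors, so that a gene that did not pass may still differ. The alternatives that left out doubtful libraries were chosen after seeing the data. With total counts in place of TMM the median of all genes moved by -0.106 in pooled dSCs over iSCs and by up to 0.340 in the single nerves. With DESeq2's size factors it moved by -0.214 in bSCs of day 10 over iSCs. Of 140 group means, 3 moved by more than 1 SD with total counts, all in dSCs, to 5518 CPM (Sparc, day 8), 6357 CPM (Sparc, day 10) and 1193 CPM (Tgfbi, day 6).

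With the pool as a replicate block the 10 genes passed in 6 cases in dSCs over iSCs, 3 in bSCs over iSCs and 3 in bSCs over dSCs, against 7, 3 and 5 without it, and 287, 968 and 236 of all genes passed against 732, 2022 and 746. With the animal as a replicate block 1 member, Postn, passed over the mean of days with 10 pairs and 0 with 11, and the block changed no other call. DESeq2 found 5 members that differed among the distal days against 0, where it called 3.51% of all genes and edgeR 0.0644%. Without the 3 libraries with low TMM factors the calls of dSCs over iSCs fell from 12 to 7. Without the 5 libraries that went against their region label, 1 member, Tgfbi, passed over the mean of days in bSCs over dSCs, at -1.34. The choice of these libraries rests on a score of that same difference. Without iSC pool 5, 7 members passed in pooled dSCs over iSCs and 3 in bSCs over iSCs, and the dSC pools, which had the higher macrophage sums, stayed in. DESeq2 gave 18 calls in dSCs and 16 in bSCs over iSCs in the single nerves, the study's filter 15 and 13, no filter 14 and 14, and DESeq2's size factors 11 and 11. DESeq2 also called more of all genes where both were counted, 3.93% against 0.103% in edgeR for the mean of days in bSCs over dSCs. Its higher counts are therefore not a result about the 10 genes.

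Without single libraries the counts ranged from 4 to 7 in pooled dSCs over iSCs, from 3 to 3 in bSCs over iSCs and from 3 to 5 in bSCs over dSCs. In the single nerves they ranged from 7 to 16 in dSCs over iSCs and from 10 to 14 in bSCs over iSCs, and from 0 to 0 in bSCs over dSCs by day and over the mean, among distal days, among bridge days and for the dependence on the day. The log2 fold changes of pooled bSCs over iSCs that changed sign, none of which had passed, ranged from -0.12 to 0.71 for Tgfbi, -0.48 to 0.35 for Spp1, -0.67 to 0.33 for Cyr61, -0.103 to 0.0826 for Sparc and -0.15 to 0.90 for Thbs1. Over the mean of days in bSCs over dSCs, Thbs1 ranged from -0.69 to 0.0899. In other settings of pooled bSCs over iSCs, Spp1 was at -0.0162 in DESeq2, -0.0162 with its size factors and -0.0622 without iSC pool 5, and Sparc at 0.14 with the pool block, 0.00728 with the lane covariate and 0.0232 without iSC pool 5.

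Among single days, the Thbs2 call in dSCs at day 6 and the Postn call in bSCs at day 10 were lost with DESeq2's size factors (adjusted p = 0.0618 and 0.061). The Postn call was also lost without the near-identical day 4 libraries (adjusted p = 0.0583), and the Thbs2 call in dSCs at day 10 without the 3 libraries from day 4 on that went against their region label (adjusted p = 0.124) or all 5 (adjusted p = 0.0704). Without the 3 libraries with low TMM factors the calls of Thbs2 in dSCs at days 2, 6, 8 and 10 and in bSCs at day 8, of Spp1 in dSCs at day 2, of Fn1 in bSCs at day 6 and of Postn in bSCs at day 10 were lost, with adjusted p from 0.0798 to 0.216. Of 116 other member-by-day values, which did not pass, 45 changed sign in some setting and 10 passed in some setting.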
